A study of Homo sapiens with 6 samples.

Results

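The 6 genes described here sense viral-type RNA or handle the ubiquitin-like protein ISG15: DDX58 (newer symbol RIGI), IFIH1, ISG15, HERC5, USP18 and UBE2L6. They were chosen by symbol, with their fold changes in this comparison already known, and all 6 of the 6 were found among the 6018 genes of the authors' deposited table. Their direction and size are therefore a description, and no test was made on them. The table has no value per library, so neither the spread between libraries nor the depth of a library can be shown.

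RNA was sequenced from C4-2B, an established line of human prostate cancer cells of LNCaP descent, recovered from xenografts in castrated mice, and from a subline of it that had been selected in abiraterone, an inhibitor of the androgen-synthesis enzyme CYP17A1. The 3 parental libraries came from cells passaged in 1% DMSO and given as passage 0. The other 3 came from the single selected subline, taken through 1 to 20 µM abiraterone for at least 6 months, kept in 5 µM and given as passage 15 to 18. Both lines grew in the same RPMI medium with 10% serum, and the extraction text mentions 10 µM abiraterone without making clear whether both lines received it. No label states that the libraries within a group were separate cultures, so the listed p-values may measure technical spread alone.

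The authors' deposited table compares a condition C, which its header calls control, with a condition V, which its header calls vehicle. Parental libraries have a V in their titles, but the header ties neither letter to a cell line. Each direction is therefore stated by these letters and is not translated into parental or selected. All genes in the table have p under 0.05 and a log2 fold change of at least 1.20 in size, so a gene that is not listed may have missed either limit and its level is unknown. Genes with a listed adjusted p under 0.05 count as called. Levels in C and V are not listed. They were worked out from each gene's mean and fold change, assuming equal numbers of libraries per side, and they carry no error of their own.

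RIG-I, the product of DDX58, and MDA5, the product of IFIH1, are cytoplasmic helicases that bind double-stranded RNA and signal through the mitochondrial adaptor MAVS to induce interferons. Interferons in turn induce ISG15 and the enzymes that handle it. UBA7 activates ISG15, UBE2L6 carries it, HERC5 is the main ligase that transfers it to target proteins in human cells, and USP18 removes it. USP18 also binds the type I interferon receptor and dampens its signalling. Many genes of this kind carry an interferon-stimulated response element before their start, built from paired GAAA blocks, which interferon regulatory factors bind.

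The promoters of 4 members are shown because they hold such paired blocks and because these 4 members had the largest fold changes of the 6. In ISG15, HERC5 and IFIH1 the blocks lie 2 bases apart, and in DDX58 only 1 base apart. A link between the blocks and the fold changes was not tested. Sequences are from RefSeq (GRCh38.p14), given 5′ to 3′ on the gene's own strand and cut to the stretch around the blocks, with the paired blocks and the bases between them in capitals. Of the 6 members, 5 were found in the RefSeq promoter table; USP18 was not. The ISG15 stretch is chr1:1013364-1013419 (plus strand), that of HERC5 chr4:88456974-88457074 (plus strand), that of IFIH1 chr2:162318685-162318863 (minus strand) and that of DDX58 chr9:32526371-32526419 (minus strand).
ISG15: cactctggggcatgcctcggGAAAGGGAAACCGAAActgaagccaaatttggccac
HERC5: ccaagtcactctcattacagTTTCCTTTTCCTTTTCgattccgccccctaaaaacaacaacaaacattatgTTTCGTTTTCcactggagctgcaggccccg
IFIH1: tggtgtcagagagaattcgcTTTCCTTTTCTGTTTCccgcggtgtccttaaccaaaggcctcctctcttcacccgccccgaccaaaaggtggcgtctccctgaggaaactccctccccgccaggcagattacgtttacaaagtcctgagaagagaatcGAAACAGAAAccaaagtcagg
DDX58: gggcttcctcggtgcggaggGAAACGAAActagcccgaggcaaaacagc

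A pair of GAAA blocks with 2 bases between them was searched on both strands in the 250 bases before each start. ISG15 held 2 overlapping pairs on the gene's strand, reaching from base -113 to -98. HERC5 held 3 pairs, all on the other strand, where they read as TTTC blocks; 2 of them overlapped, from -125 to -110, and the other lay from -74 to -65. IFIH1 held 2 overlapping pairs on the other strand, from -159 to -144, and 1 on its own strand from -21 to -12. DDX58 and both RefSeq promoters of UBE2L6 held no pair with this spacing. The DDX58 promoter held GAAA blocks 1 base apart, from -203 to -195, a spacing tried after the sequences had been read. Pairs with 2 bases between them occurred in 1061 of 35116 RefSeq promoters (3.02%), and pairs 1 base apart in 945 (2.69%). A match describes letters in this window and does not show that a factor binds there.

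**Figure D1:**
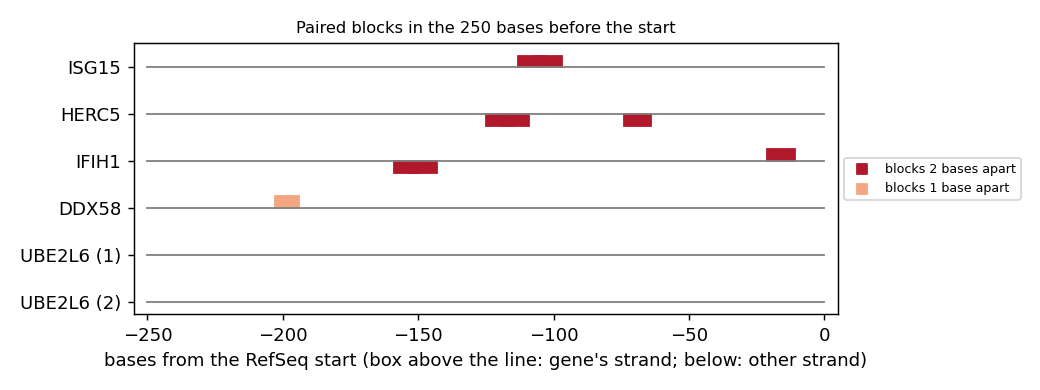
Map of paired GAAA blocks in the 250 bases before the RefSeq start of 5 members (x axis, bases from the start; UBE2L6 has 2 RefSeq promoters). Dark boxes are blocks 2 bases apart, light boxes blocks 1 base apart; ISG15, HERC5 and IFIH1 hold dark boxes, DDX58 a light box, and UBE2L6 none.

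All 6 members were called, each of them toward V, with folds that ran from 3.35 for USP18 to 199 for HERC5. Among all listed genes, 89.4% were called and 43.4% were called and higher in V. Among listed protein-coding genes, the type to which every member belongs, these shares were 92.6% and 61.0%. The members were chosen with this contrast known, so nothing is read from their count. Their median log2 fold change of C over V in the authors' deposited table was -6.16. The median was 1.24 over all called genes and -1.55 over the called protein-coding genes, both of which mix genes of either direction, so nothing about the members is read from the difference. In bulk RNA, more cells with a transcript and more transcript per cell cannot be told apart.

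DDX58 had a log2 fold change of C over V of -7.47 ± 0.13 (standard error) in the authors' deposited table. It lies at 32455705 to 32526324 on the minus strand of chromosome 9 (GENCODE release 29, GRCh38). Its derived level came to 42.4 normalised counts on the C side and 7497 on the V side, a 177-fold difference with a 95% interval of 148 to 212. By Wald statistic it stood at rank 3 toward V among all 6018 listed genes. IFIH1, at 162267079 to 162318703 on the minus strand of chromosome 2, had a log2 fold change of -5.93 ± 0.13 in the authors' deposited table. Its derived level came to 49.4 normalised counts on the C side and 3021 on the V side, which is 61.1-fold (95% interval 51.3 to 72.8). In condition C both helicase sensors were thus detected at similar levels per exon length, 9.73 normalised counts per kb for DDX58 and 9.68 for IFIH1. In V the derived levels were 1722 per kb for DDX58 and 591 for IFIH1.

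ISG15, the modifier itself, was the most abundant member on both sides. It lies at 1001138 to 1014540 on the plus strand of chromosome 1. The authors' deposited table lists a mean of 7357 normalised counts and a log2 fold change of -6.38 ± 0.15. This gave a derived level of 174 normalised counts for C and 14540 for V, or 83.4-fold (95% interval 68.4 to 102). Per kb of exon this came to 185 in C and 15452 in V.

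HERC5, the ligase, had the largest fold change of the 6. The gene occupies 88457117 to 88506163 on the plus strand of chromosome 4, and its log2 fold change was -7.63 ± 0.20 in the authors' deposited table. Derived levels were 17.1 normalised counts for C and 3395 for V, or 199-fold (95% interval 151 to 261). HERC5 was thus scarce in C, at 3.59 normalised counts per kb, and close to IFIH1 in V, at 712 per kb.

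USP18 and UBE2L6 differed far less. USP18, the protease, lies at 18149899 to 18177397 on the plus strand of chromosome 22 and had a log2 fold change of -1.75 ± 0.15 in the authors' deposited table (adjusted p = 1.86e-31, authors' DESeq2). Derived levels were 87.8 normalised counts for C and 295 for V, a 3.35-fold difference with a 95% interval of 2.75 to 4.09. UBE2L6, the conjugating enzyme, lies at 57551656 to 57568284 on the minus strand of chromosome 11. It was listed with a mean of only 16.0 normalised counts and a log2 fold change of -2.73 ± 0.56 in the authors' deposited table (adjusted p = 4.76e-06, authors' DESeq2). Its derived level was 4.20 in C and 27.8 in V, or 6.62-fold, with a 95% interval of 3.10 to 14.1, the widest of the 6 on the log2 scale. For the other 4 members the table lists p and adjusted p as 0.

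As a description of the listed values, with no test of one member against another, DDX58 and HERC5 had overlapping 95% intervals of the log2 fold change, as did ISG15 and IFIH1, and USP18 and UBE2L6. Ranked by fold change toward V among the 6018 listed genes, HERC5 stood at 68 and DDX58 at 77, ISG15 at 155 and IFIH1 at 203, and UBE2L6 at 1272 and USP18 at 2004.

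**Figure D2:**
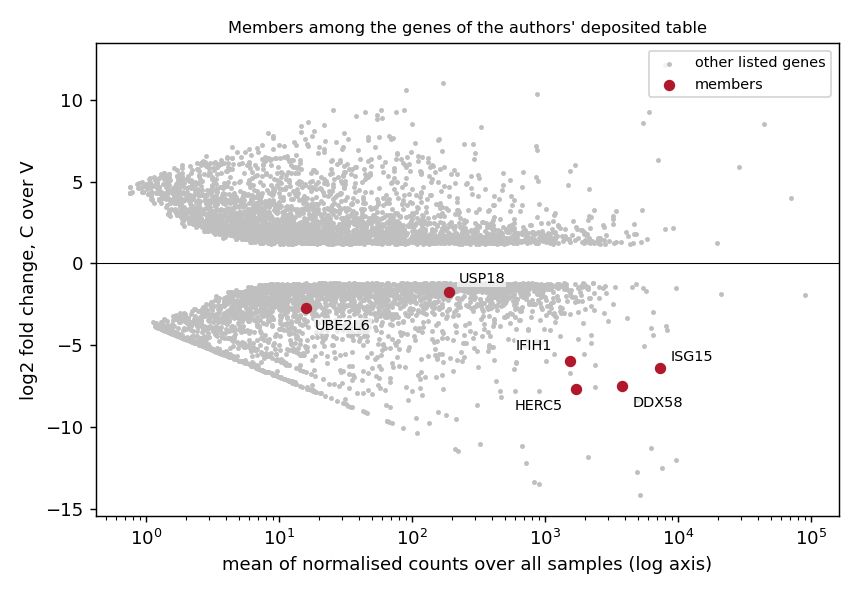
Log2 fold change of C over V (y axis) against the listed mean of normalised counts (x axis, log scale) for the 6018 genes of the authors' deposited table, with the members in red. HERC5, DDX58, ISG15 and IFIH1 lie far toward V at means of 1535 or more, whereas USP18 and UBE2L6 lie near the bulk of listed genes; the empty band around 0 is the table's own fold limit.

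The order of levels differed between the sides. Per kb of exon, the derived levels in V ran from ISG15 through DDX58, HERC5, IFIH1 and USP18 (138) to UBE2L6 (12.7). In C the order was ISG15, USP18 (41.2), DDX58, IFIH1, HERC5 and UBE2L6 (1.91). USP18, the enzyme that removes ISG15, was therefore at rank 2 of the 6 in C and at rank 5 in V. Without library values it cannot be said which neighbours in either order differ beyond their spread.

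**Figure D3:**
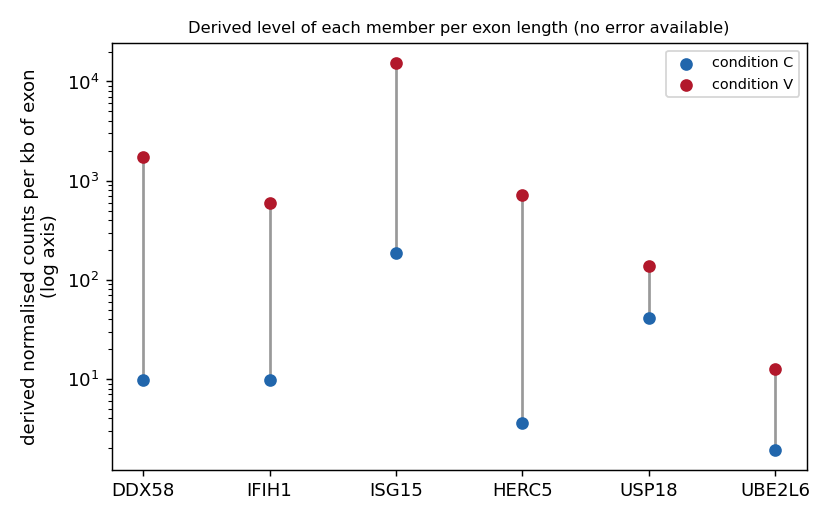
Derived level of each member in C (blue) and V (red), in normalised counts per kb of exon (log axis), without error bars because no library values were used. ISG15 is highest on both sides at 185 and 15452, and USP18 spans the shortest distance, from 41.2 to 138.

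The listed standard errors were set beside what counting alone would give for derived levels of this size in 3 libraries per side. For HERC5 the listed error was 0.989 times that value, for DDX58 1.03 times and for IFIH1 1.08 times. UBE2L6 stood at 1.28, USP18 at 1.45 and ISG15 at 2.30. Among the 1592 listed genes with a mean of at least 100 normalised counts, the median was 1.61. The errors of the helicase sensors and of HERC5 were thus near the counting limit, while that of ISG15 exceeded it. That limit is itself larger where the level on 1 side is low. Derived C levels were 17.1 for HERC5, 42.4 for DDX58 and 49.4 for IFIH1, against 174 for ISG15. The ratios therefore do not show that these 3 genes varied less between libraries than ISG15, and the median is not matched for C level. The calculation treats normalised counts as reads.

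Of the rest of the ISG15 pathway, UBA7 and HERC6 were listed, and both lay on the same side as the members. Of the 13 genes on the conjugation list, 6 were listed and called, all of them higher in V (median log2 fold change -3.62). Of these 6, 4 are the members ISG15, UBE2L6, HERC5 and USP18. The count and the median thus rest mostly on genes chosen with this contrast known, and nothing is read from them. Among all called genes 48.5% were higher in V, and among called protein-coding genes 65.9%. UBA7, the activating enzyme, had a log2 fold change of -3.85 ± 0.36, and HERC6, a ligase of the HERC5 family, one of -3.38 ± 0.14 in the authors' deposited table. In fold terms the chain ran from 14.4 for UBA7 and 6.62 for UBE2L6 to 199 for HERC5 and 10.4 for HERC6. UBA7 was also scarce, with derived levels of 6.86 normalised counts in C and 99.1 in V. The alternative ligases ARIH1 and TRIM25 were not listed. None of the 30 genes on a list of other ubiquitin-like systems, among them the ubiquitin E1 UBA1, the closely related E2 UBE2L3 and the modifier NEDD8, was listed. That list leaves out other E2 genes, of which UBE2B was called toward V and UBE2C, UBE2T and UBE2L5 toward C. A change particular to the ISG15 system is therefore not read from it.

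On a list of RNA sensing genes drawn up by hand, those other than the members were likewise higher in V where called. The helicase gene DHX36, not on this list, was called toward C (1.78 ± 0.08 in the authors' deposited table). The list holds 55 genes, of which 14 were listed and 13 called, all 13 higher in V (median log2 fold change -4.66). Of the 13, 11 are not members, and the median includes the members DDX58 and IFIH1. Among all called protein-coding genes 65.9% were higher in V. The list was chosen with earlier results of these data known, so nothing is read from its count or median. Among sensors and helicases, 9 of 18 were called. DHX58, which encodes the regulatory helicase LGP2 of the same family as RIG-I and MDA5, had a log2 fold change of -4.60 ± 0.15 in the authors' deposited table. DDX60, an interferon-induced helicase, had -7.83 ± 0.21 and its relative DDX60L -5.23 ± 0.31 in the authors' deposited table. The endosomal RNA receptor TLR3 had -4.98 ± 0.70 at a derived level of 1.56 in C and 49.5 in V, and the RNA-binding antiviral protein ZC3HAV1 had -3.83 ± 0.05 in the authors' deposited table. The endosomal receptor TLR8 was called at derived levels of 0.157 in C and 3.98 in V, too low for its fold to be well determined.

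Downstream of the sensors, few genes were listed. Of the 19 adaptors, kinases and factors on the list, 1 was listed, the interferon regulatory factor IRF7 (-1.67 ± 0.16 in the authors' deposited table). The adaptor MAVS, the kinase TBK1 and the factor IRF3 were not listed. Of the 18 regulators, 3 were called: NLRC5, a transactivator of class I genes (-5.32 ± 0.22), and the deubiquitinases TNFAIP3 (-4.34 ± 0.19) and CYLD (-1.50 ± 0.11), as listed in the authors' deposited table. EIF2AK2 and ADAR, which encode the RNA-dependent kinase PKR and an RNA-editing enzyme, were not listed.

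Of the 20 interferon receptor and factor genes, 6 were called, all higher in V, beside 65.9% of all called protein-coding genes. This list too was chosen with earlier results of these data known, so nothing is read from the count. IRF1 had a log2 fold change of -5.09 ± 0.19 and the kinase JAK2 one of -3.29 ± 0.12 in the authors' deposited table. IRF2 (-1.43 ± 0.17) and the interferon gamma receptor chain IFNGR1 (-1.50 ± 0.15) in the authors' deposited table were of the size of USP18. The feedback inhibitors SOCS1 and SOCS3 were called at derived C levels of 0.911 and 0.299, so their folds are poorly determined. IL10RB was listed but not called. The factors STAT2 and IRF9, which act on interferon-stimulated response elements, and the receptor chains IFNAR1 and IFNAR2 were not listed.

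**Figure D4:**
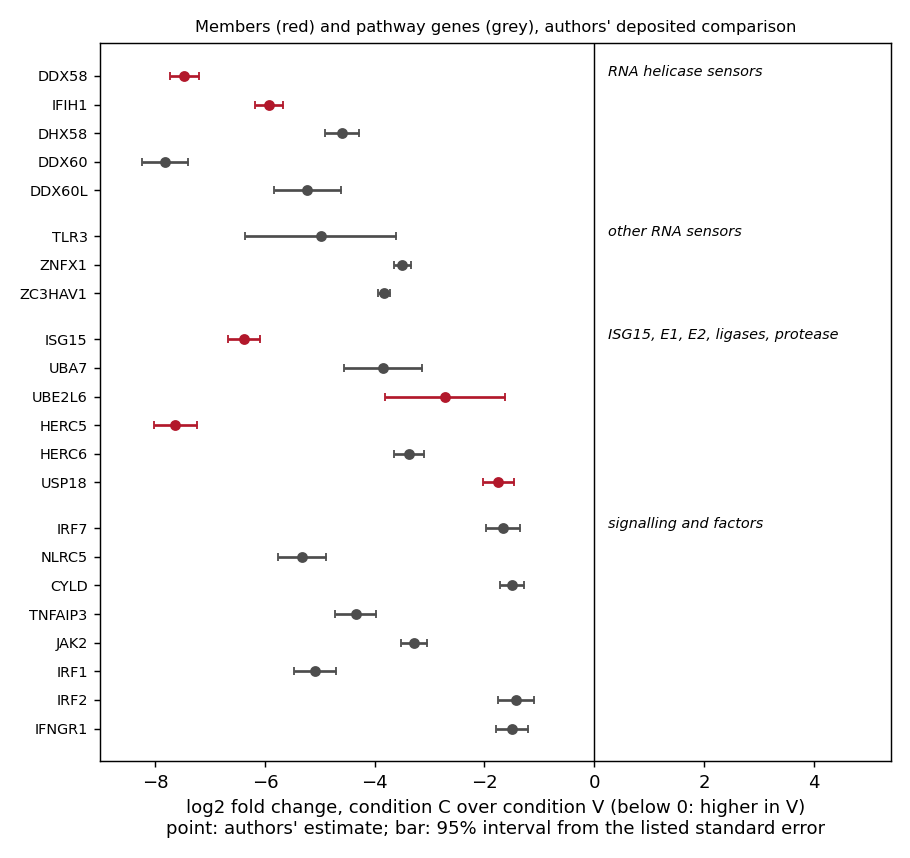
Log2 fold change of C over V (x axis) with its 95% interval for the 6 members (red) and for other called genes of the RNA sensing, ISG15 and interferon factor lists with a mean of at least 20 normalised counts (grey), grouped by role. All points lie below 0, toward V, and the members span the range from -7.63 for HERC5 to -1.75 for USP18.

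Genes around the members did not share 1 direction. Within 100 kb of the 6 members, 60 other genes are annotated, of which 9 were listed and 8 called, 6 higher in V and 2 higher in C. Among all listed genes 89.4% were called, and 48.5% of the called genes were higher in V, so nothing is read from these counts. ISG15 accounted for 5 of the 6 neighbours higher in V. HES4, a transcriptional repressor gene whose annotated body lies 0.966 kb before that of ISG15 on the other strand, had a log2 fold change of -2.43 ± 0.17 in the authors' deposited table. The annotated ISG15 body begins at 1001138, while the window of its RefSeq promoter spans 1013247 to 1013546. The 0.966 kb is therefore not a distance from the RefSeq start. Derived levels of HES4 were 123 normalised counts for C and 664 for V. The long noncoding gene AL645608.7 (-2.88 ± 0.41), the pseudogene AL390719.1 (-1.91 ± 0.50) and the protein-coding genes PLEKHN1 (-1.39 ± 0.19) and RNF223 (-1.98 ± 0.33) likewise lay toward V in the authors' deposited table. These 5 changes were all smaller than that of ISG15.

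Near HERC5, HERC6 lay 14.0 kb away and was higher in V. The pseudogene NCOA4P2, 2.43 kb past the end of HERC5, lay toward C (3.14 ± 0.83 in the authors' deposited table), at derived levels of 13.2 in C and 1.50 in V. Near UBE2L6, the amino acid transporter gene SLC43A1 lay toward C (1.33 ± 0.07 in the authors' deposited table). No gene within 100 kb of DDX58, IFIH1 or USP18 was called. Annotation places 2 other genes over ISG15, neither of them listed, and none over the remaining members. USP41, a near-identical copy of USP18, was not listed, and how the authors' counting divided reads between the copies is not given in the sources used here, so the USP18 values are uncertain.

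**Figure D5:**
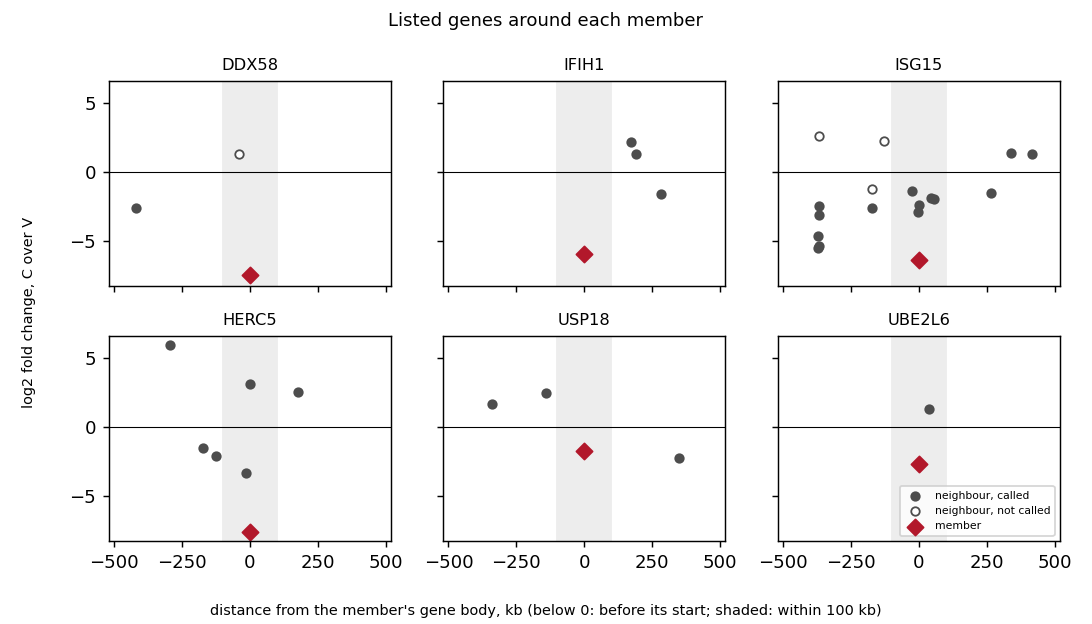
Listed genes within 500 kb of each member, plotted by distance from the member's gene body (x axis, kb) and log2 fold change of C over V (y axis); filled points were called, open points were not, and the red diamond is the member. The shaded 100 kb around ISG15 holds 5 called neighbours, all below 0, and that around IFIH1 and USP18 holds none.

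Markers of the line and of other cell types were read beside these values. Of 10 markers of a luminal prostate line, 3 were listed and called: the prostate genes KLK3 and KLK2 toward C, and the luminal keratin KRT8 toward V. Derived levels of KLK3 were 15170 normalised counts for C and 3363 for V, and those of KRT8 1364 for C and 3715 for V, so both markers were detected on both sides. Of 14 leukocyte markers, 5 were listed, called and higher in V, beside 65.9% of all called protein-coding genes. The summed derived levels of the 5 were 1.79 in C and 92.5 in V. PTPRC, the general leukocyte marker, was the highest at 35.7 in V. None of 4 plasmacytoid dendritic cell markers was listed. Of 4 endothelial markers 1 was called, PECAM1, at a derived level of 14.9 in V, and of 6 fibroblast markers 2 were called, 1 in each direction. The derived V level of ISG15 was 14540. Levels of different genes do not give numbers of cells, so the marker levels are not weighed against it. The part of other cells in the members' values was not tested.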

How the data were processed

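Expression was measured by RNA sequencing in 3 parental and 3 abiraterone-selected libraries, each from 1 µg of total RNA read as 50 bp single ends, per the labels' protocols. Those protocols name both an mRNA kit and a total RNA kit and do not assign libraries to either. The 1 table used is the authors' DESeq2 comparison of C with V. Per the file headers, the authors' columns are the all-sample mean of normalised counts (a signal value), the maximum likelihood log2 fold change for C against V, its standard error and Wald statistic (score columns), the Wald p-value and the Benjamini-Hochberg adjusted p-value. The submitters' processing notes name FastQC and Cufflinks 2.2.1 but no role for them. The aligner, the counter and the genome build: not given in the sources used here.

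From the table, levels per side, folds with 95% intervals (normal quantile, scipy 1.17.1), counting errors, ranks and counts per list were computed with Python 3.11.15 and pandas 2.3.3; the code was tested on simulated data. Depth per library is unknown and limits what can be said of scarce genes. Of the 4 genes with an adjusted p of 0 beside a p above 0, the adjusted p was read as not given. Positions, gene types and exon lengths were taken from GENCODE release 29 (GRCh38), where 5935 of the 6018 identifiers were found; the authors may have used another annotation. Genes on the lists were matched by Ensembl identifier, or by symbol where that identifier was not listed. Genes named are the members, list genes, neighbours, copies and family relatives. The members and lists were chosen with earlier results of these data known. Test designs for library values could not be used, and a planned comparison of protein sequences was not made. Alternatives were a stricter adjusted p, fold, mean or interval, unequal library numbers, a wider window and other promoter searches.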

Additional observations from a re-analysis of the deposited data

How the results depend on the processing

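All 6 members remained called toward V with adjusted p under 0.01 and with the 95% interval beyond a log2 of 1; 5 did so when the log2 fold change had to reach 2 in size, where USP18 was lost, and 5 with a mean of at least 100, where UBE2L6 was lost. The counts of the RNA sensing, ISG15 conjugation and interferon factor lists stayed within 1.5 times in these 4 settings, and that of the other ubiquitin-like systems stayed at 0. Called neighbours within 100 kb fell to 3 higher in V and 1 higher in C when the log2 fold change had to reach 2, and likewise to 3 and 1 with a mean of at least 100. A window of 500 kb held 18 higher in V and 10 higher in C. Called relatives of the members outside chromosome Y that were higher in C numbered 4 and fell to 0 under the same fold limit of 2. The Y-linked relatives DDX3Y (4.92) and USP9Y (4.81) lay toward C beyond that limit but were not counted. With GAAA blocks 1 base apart in place of 2, chosen after seeing the data, 1 member promoter matched instead of 3. If 3 libraries stood behind V and 2 behind C, the derived V level of ISG15 would be 12165, and 18068 in the opposite case. These shifts follow from the altered limits themselves. No paired analysis was possible because the table holds no library values, and for the same reason no replicate could be left out. Depth per library is unknown, so UBE2L6 and UBA7 are the least well determined of the ISG15 genes.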

Other observations

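Relatives of the members by symbol were counted, leaving out chromosome Y. The Y-linked relatives DDX3Y (log2 fold change 4.92) and USP9Y (4.81), both called toward C, are therefore not in these counts. The counts include the members DDX58, HERC5, USP18 and UBE2L6, which were chosen with this contrast known. Among all listed protein-coding genes 92.6% were called, so nothing is read from the numbers called. Of 54 annotated DDX and DHX helicase genes, 5 were listed and called, 4 higher in V (DDX58, DHX58, DDX60 and DDX60L) and 1 higher in C, DHX36, which encodes a helicase that unwinds G-quadruplexes (1.78 ± 0.08 in the authors' deposited table). Of 6 HERC ligase genes 2 were listed and called, HERC5 and HERC6, both higher in V. Of 52 USP deubiquitinase genes outside chromosome Y, 1 was listed, USP18. Of 35 UBE2 genes 5 were called. UBE2B, a conjugating enzyme of DNA damage tolerance (-1.42 ± 0.14), was higher in V with UBE2L6. UBE2C, which serves the anaphase-promoting complex (1.65 ± 0.13), UBE2T, which serves the Fanconi anaemia pathway (1.57 ± 0.13), and UBE2L5, a close copy of UBE2L3 (1.30 ± 0.23), lay toward C in the authors' deposited table.

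Of the 1802 called protein-coding genes higher in V, 1362 were matched to a RefSeq promoter, as were 716 of the 934 higher in C. Paired GAAA blocks 2 bases apart were present before the start of 97 of these 1362 genes (7.12%) and of 27 of these 716 (3.77%). Among all 15287 protein-coding genes with a RefSeq promoter, 554 held such blocks (3.62%). When the second block had to be followed by C, the shares were 3.01%, 0.698% and 0.805%. No test was made of these shares. ISG15, HERC5 and IFIH1 met the stricter search as well.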
